A study of Mus musculus with 6 samples.

Results

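The genes described here are 10 markers of Kupffer cells and other macrophages: *Clec4f*, *Vsig4*, *Timd4*, *Marco*, *Cd5l*, *Adgre1*, *Csf1r*, *C1qa*, *C1qb* and *C1qc*. They were chosen by gene symbol, and each of the 10 matched 1 of the 56691 Ensembl genes counted in the series. RNA was sequenced from 6 livers of pregnant mouse dams on a high-fructose diet (HFrD). The KPF group held 3 libraries of hChrebp-KO dams, in which *Chrebp* (gene symbol *Mlxipl*), the carbohydrate-responsive transcription factor, was removed from hepatocytes. The deletion combined loxP-flanked (flox/flox) alleles with an Alb-Cre transgene, whose albumin promoter is active in hepatocytes and not in macrophages. The WPF group held 3 libraries of control dams, labelled WT; the study's methods describe the controls as *Chrebp* flox/flox mice. All 6 dams were pregnant, ate HFrD during pregnancy and had livers taken in late gestation, and no dam on normal chow was analysed here. Ages were not given in the sources used here.

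Kupffer cells are the resident macrophages of the liver. They sit inside the sinusoids, take up particles, dying cells and old red cells from portal blood, and keep their identity through signals from neighbouring endothelial, stellate and parenchymal cells. *Clec4f* is a lectin found on mouse Kupffer cells, *Vsig4* a receptor for complement-coated particles, *Timd4* a receptor for phosphatidylserine on dying cells that marks long-lived resident macrophages, *Marco* a scavenger receptor for bacteria and particles, and *Cd5l* (also called AIM) a secreted scavenger protein induced by liver X receptors. *Adgre1* encodes F4/80, and *Csf1r* the receptor for the growth factors CSF1 and IL-34; both are carried by macrophages in general. *C1qa*, *C1qb* and *C1qc* encode the 3 chains of C1q, the recognition part of the first complement complex, which macrophages make.

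The promoters of 4 markers are shown. *Clec4f* had the highest level per length, and *C1qb* and *C1qc* are neighbours in 1 gene cluster. *Cd5l* was the marker without overlap between the groups, although it was not called. Each is the 250 bases before the start of the gene in RefSeq (build GRCm38.p6), 5′ to 3′ on the strand of the gene. Capitals mark the core of the PU.1 motif, GAGGAA, and the half-site bound by MAF factors, TGCTGA, on either strand; PU.1 and MAF factors are transcription factors of macrophages. The windows are chr6:83656117-83656366 (minus strand) for *Clec4f*, chr3:87357631-87357880 (plus strand) for *Cd5l*, chr4:136886201-136886450 (minus strand) for *C1qb* and chr4:136892915-136893164 (minus strand) for *C1qc*.
Clec4f: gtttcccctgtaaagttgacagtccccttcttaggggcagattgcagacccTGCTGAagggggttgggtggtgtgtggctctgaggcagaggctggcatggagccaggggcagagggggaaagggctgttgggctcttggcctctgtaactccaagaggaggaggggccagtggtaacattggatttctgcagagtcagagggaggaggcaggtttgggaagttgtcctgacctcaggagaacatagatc
Cd5l: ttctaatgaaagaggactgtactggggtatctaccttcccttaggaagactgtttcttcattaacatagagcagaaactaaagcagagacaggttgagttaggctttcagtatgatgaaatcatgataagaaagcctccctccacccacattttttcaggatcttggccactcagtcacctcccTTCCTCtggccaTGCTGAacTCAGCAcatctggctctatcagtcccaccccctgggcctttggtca
C1qb: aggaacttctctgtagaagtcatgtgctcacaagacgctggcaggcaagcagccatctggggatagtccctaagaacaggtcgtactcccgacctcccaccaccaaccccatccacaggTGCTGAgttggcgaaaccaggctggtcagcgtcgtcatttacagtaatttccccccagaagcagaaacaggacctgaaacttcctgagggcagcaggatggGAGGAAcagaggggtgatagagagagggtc
C1qc: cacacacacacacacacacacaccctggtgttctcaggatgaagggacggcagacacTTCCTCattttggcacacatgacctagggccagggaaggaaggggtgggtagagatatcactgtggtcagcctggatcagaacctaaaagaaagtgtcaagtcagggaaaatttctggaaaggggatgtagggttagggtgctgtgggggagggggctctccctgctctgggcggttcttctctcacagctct

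Such windows were used for 7 of the 10 markers (these 4, *Marco*, *Timd4* and *Vsig4*). No window was at hand for *C1qa* and *Adgre1*, and that of *Csf1r* was left out, so the counts below do not cover these markers. GAGGAA occurred in 5 of the 7 (*Marco*, *Cd5l*, *C1qb*, *C1qc* and *Vsig4*) and in 23.3% of all 32851 promoters of this length. TGCTGA occurred in 4 of the 7 (*Cd5l*, *C1qb*, *Clec4f* and *Timd4*) and in 16.1% of all promoters. In *Cd5l*, 2 half-sites face each other across 2 bases (TGCTGANNTCAGCA), an arrangement that was looked for after this window was seen and that was held by 2 of the 32851 promoters. The E-box CACGTG, the type of half-site found in the elements that *Chrebp* binds, was in 0 of the 7 and in 6.02% of all promoters. These are matches of letters and not measured binding.

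The libraries held 10694496 to 14496630 counted reads, and the 3 KPF libraries were the smallest. *Mlxipl* itself was at 182, 709 and 860 CPM (reads per 1000000 counted reads, scaled by TMM) in KPF replicates 1 to 3 and at 974, 1277 and 891 CPM in WPF replicates 2 to 4. KPF replicate 1 lay far below the rest, whereas KPF replicate 3 lay next to WPF replicate 4. KPF was lower without overlap, at a log2 fold change of -0.84 ± 0.53 (SE; edgeR, adjusted p = 0.584), and the count covers the whole gene, not the deleted exon alone. The 12 hepatocyte genes summed to 89786 to 116848 CPM in KPF and to 117005 to 191770 CPM in WPF. KPF was thus lower without overlap, although the highest KPF sum lay close to the lowest WPF sum. A gene is called here at an unadjusted p under 0.05 with a change of at least 1.5-fold in edgeR. By that rule 5.83% of the 10866 genes tested were called higher in KPF, 3.98% lower and 9.81% in either direction. The balance turned over with library totals (371 higher and 716 lower) and with limma at a pseudocount of 1 (237 and 540). No gene passed an adjusted p under 0.05 in the main edgeR fit, where 1176 genes had an unadjusted p under 0.05. In DESeq2 156 genes passed. In edgeR 286 passed with no filter on low values and 5 without WPF replicate 4.

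All 10 markers were measured in every library, with 24 to 2321 reads per gene, and all 10 were tested. None was called, beside the 9.81% of all tested genes that were. By log2 fold change 7 lay below 0 in KPF and 3 above 0, with a median of -0.22 against 0.02 for all genes tested, and their adjusted p values ran from 0.473 to 0.921 (edgeR). The 95% confidence intervals, from 3 libraries in each group, were wide. Each of the 10 reached past 1.5-fold on at least 1 side, so a change of that size was not excluded for any marker. In a bulk sample, fewer macrophages and less RNA per macrophage cannot be told apart.

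**Figure D1:**
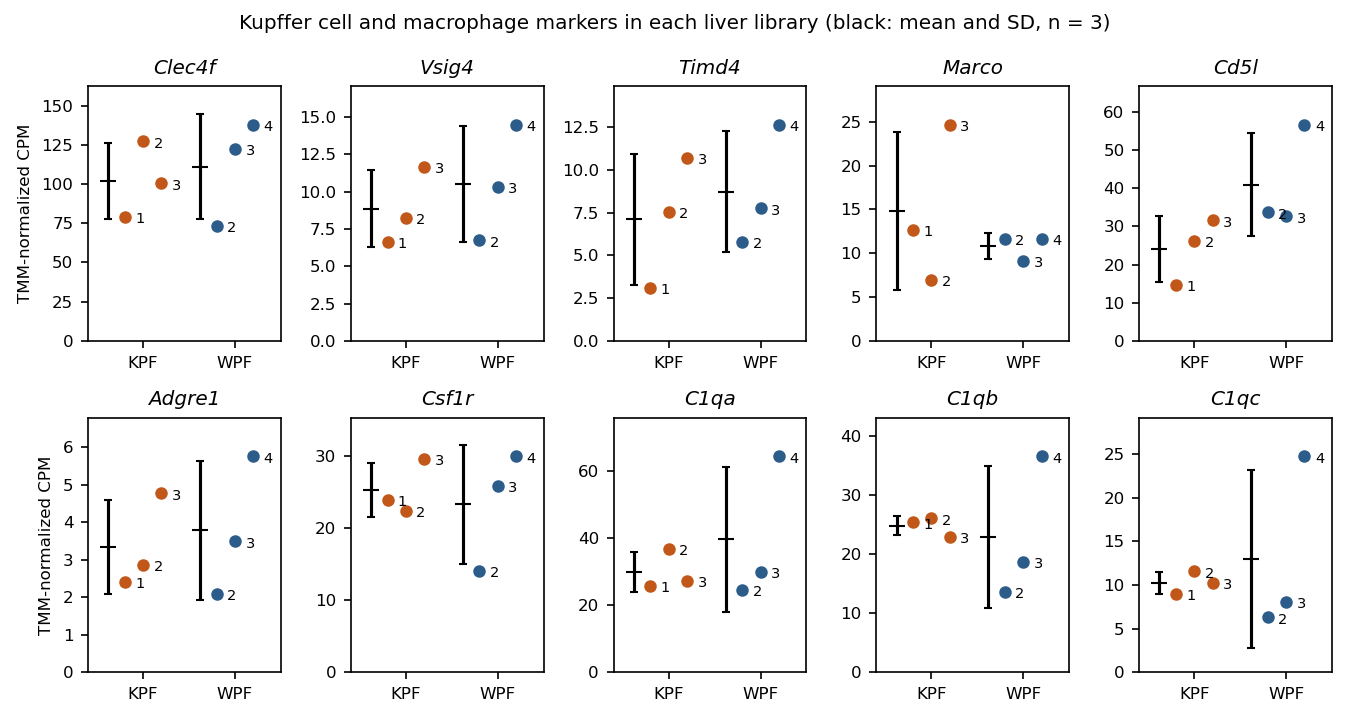
TMM-normalized CPM of each marker in each library, with KPF in orange, WPF in blue and the replicate number beside each point; black bars give the mean and SD of 3 libraries, and each axis starts at 0. WPF replicate 4 is the highest library in 9 of the 10 panels, and only for *Cd5l* do all KPF points lie below all WPF points.

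None of the markers most tied to Kupffer cells was called. Among them only *Cd5l* did not overlap between the groups, beside 15.7% of all tested genes. *Clec4f* (chromosome 6, 83621524 to 83633169 on the minus strand in build GRCm39 as all positions of the deposited table) was at 78.9, 127 and 100.5 CPM in KPF replicates 1 to 3 and at 73.5, 122 and 138 CPM in WPF replicates 2 to 4. Both groups held 1 library under 80 CPM and the ranges overlapped, at a log2 fold change of -0.12 ± 0.31 (SE). The interval of that difference, 0.554 to 1.52 times the WPF level, was among the narrowest of the markers, and *Clec4f* was also the marker with the most reads (817 to 2321).

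*Vsig4* (chromosome X, 95290809 to 95337044) was at 6.66, 8.25 and 11.7 CPM in the KPF livers and at 6.74, 10.3 and 14.5 in the WPF livers. The lowest libraries of the groups lay close together and the log2 fold change was -0.25 ± 0.35 (SE). *Timd4* (chromosome 11, 46701627 to 46735159) was at 3.09, 7.53 and 10.7 CPM in the KPF livers and at 5.78, 7.76 and 12.6 in the WPF livers. Its level spanned 4.09-fold from KPF replicate 1, the lowest library with 32 reads, to WPF replicate 4, and the groups overlapped (log2 fold change -0.30 ± 0.48, SE). Both receptors thus ranked WPF replicate 4 first and KPF replicate 3 second.

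*Marco* had another order of libraries from the remaining markers. On chromosome 1 (120402267 to 120432753), it was at 12.6, 6.99 and 24.6 CPM in the KPF livers and at 11.6, 9.11 and 11.6 in the WPF livers. The highest and the lowest of all 6 values were both in KPF, so that the SD was 9.01 CPM there and 1.46 CPM in WPF. The log2 fold change of 0.45 ± 0.43 (SE; adjusted p = 0.718, edgeR) was the largest above 0 among the markers. It became a call only without KPF replicate 2 (0.78, unadjusted p = 0.0463), the library in which *Marco* was lowest, and it turned below 0 (-0.14) without KPF replicate 3, in which *Marco* was highest.

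*Cd5l* (chromosome 3, 87265188 to 87278380, plus strand) was at 14.6, 26.3 and 31.5 CPM in the KPF livers and at 33.6, 32.6 and 56.6 in the WPF livers. Every KPF library lay below every WPF library, although the gap between KPF replicate 3 and WPF replicate 3 was about 1 CPM. The log2 fold change was -0.76 ± 0.35 (SE), a KPF level of 0.337 to 1.03 times that of WPF by the 95% interval. It did not pass the test (edgeR, unadjusted p = 0.0606, adjusted p = 0.473), and the exact two-sided permutation test gave p = 0.1, the smallest value 3 libraries against 3 allow. *Cd5l* was the 1 marker of 10 without overlap; over all tested genes 15.7% did not overlap, 8.15% with KPF lower.

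The *Cd5l* difference depended on a few libraries and settings. It passed the call rule in 5 of 15 alternatives: library totals in place of TMM (-0.94), limma on log2(FPKM + 0.1) (-0.91), no filter on low values (-0.82), the filterByExpr filter (-0.79) and without KPF replicate 3 (-1.003). Without WPF replicate 4 it was -0.47, and without KPF replicate 1, the library with the lowest level, -0.50. All 15 alternatives kept it below 0, from -1.003 to -0.20. Set against the geometric mean of the other 9 markers in the same library, *Cd5l* was lower in each KPF library. This ratio holds the same *Cd5l* values, so it is not separate evidence, and it was not computed for genes outside the markers. The log2 ratio was 0.23, 0.80 and 0.75 in KPF and 1.63, 1.13 and 1.22 in WPF, a difference of -0.73 (exact permutation test, p = 0.1, its floor). None of the other 9 markers separated the groups on this relative scale, where their exact p ran from 0.2 to 1.

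The general macrophage receptors gave small differences. *Adgre1* (chromosome 17, 57665691 to 57790527) was at 2.41, 2.87 and 4.77 CPM in the KPF livers and at 2.10, 3.49 and 5.76 in the WPF livers. It was the lowest of the 10 markers, with 24 to 97 reads, and its log2 fold change was -0.18 ± 0.47 (SE). *Csf1r* was at 23.9, 22.4 and 29.6 CPM in the KPF livers and at 14.1, 25.9 and 30.0 in the WPF livers. The KPF values lay inside the WPF range, and the log2 fold change was 0.12 ± 0.30 (SE; adjusted p = 0.902, edgeR). The row of *Csf1r* overlaps *Hmgxb3* on the opposite strand, and the strandedness of the counting was not given in the sources used here.

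The 3 C1q genes lie next to each other on the minus strand of chromosome 4 in the coordinates of the deposited table (build GRCm39): *C1qb* at 136607440 to 136613498, *C1qc* at 136617115 to 136620376 and *C1qa* at 136623228 to 136626114. *C1qa* was at 25.7, 36.8 and 27.2 CPM in the KPF livers and at 24.6, 29.9 and 64.3 in the WPF livers (log2 fold change -0.41 ± 0.38, SE). *C1qb* was at 25.4, 26.1 and 23.0 CPM in the KPF livers and at 13.6, 18.7 and 36.6 in the WPF livers (0.11 ± 0.35, SE). *C1qc* was at 8.98, 11.6 and 10.2 CPM in the KPF livers and at 6.31, 8.05 and 24.7 in the WPF livers (-0.35 ± 0.50, SE). The 3 KPF libraries were close together for each chain, with an SD of 1.63 CPM for *C1qb* against 12.1 CPM in WPF, and they lay inside the WPF range for all 3. WPF replicate 4 alone held the highest value of each chain, and without it the log2 fold changes were 0.12, 0.61 and 0.50; that of *C1qb* then passed the call rule (unadjusted p = 0.0371, edgeR).

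The chains were also compared with each other within each library. As a share of the summed FPKM (reads per kilobase of exon and 1000000 counted reads, a scale on which genes can be compared) of the 3 genes, *C1qa* made up 46.9%, 54.1% and 49.7% in KPF and 60.0%, 57.4% and 57.1% in WPF. *C1qb* made up 44.3%, 36.7% and 40.2% in KPF and 31.7%, 34.2% and 31.0% in WPF. *C1qa* was the smaller share and *C1qb* the larger share in each KPF library, without overlap, and the exact permutation test gave p = 0.1 for both, the smallest it allows. The *C1qc* share was 8.82% to 10.1% in KPF and 8.29% to 11.8% in WPF, and overlapped (exact p = 1). A share within a library does not depend on the scaling between libraries, and the *C1qa* and *C1qb* shares are not independent of each other. Such shares were not computed for other genes; of single genes 15.7% did not overlap.

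**Figure D2:**
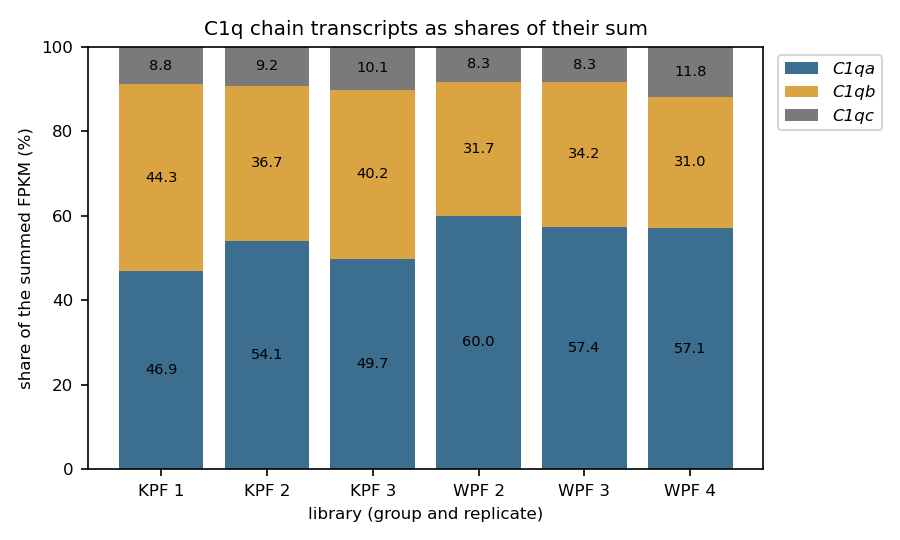
Stacked bars give each C1q chain transcript as a percent of the summed FPKM of *C1qa*, *C1qb* and *C1qc* in 1 library. The *C1qa* part stays at or below 54.1% in the KPF bars and at or above 57.1% in the WPF bars, while the *C1qb* part is above 36% in KPF and below 35% in WPF.

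**Figure D3:**
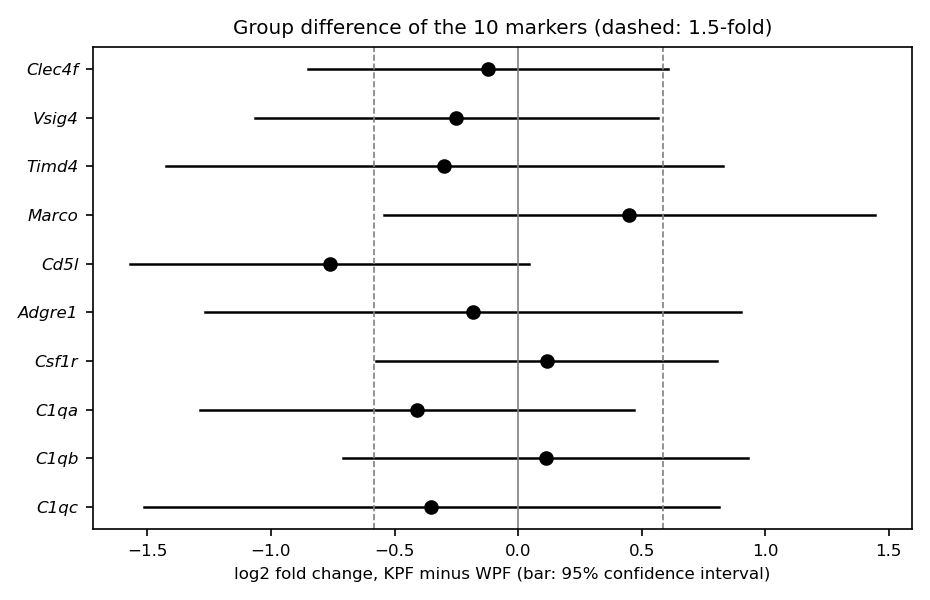
Log2 fold change of KPF against WPF for each marker (point) with its 95% confidence interval from edgeR (bar); dashed lines stand at 1.5-fold. All 10 intervals include 0, and that of *Cd5l*, -1.57 to 0.04, lies farthest to the left.

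Per length, *Clec4f* had the highest mean level over the 6 libraries (43.6 FPKM), followed by *C1qa* (34.2), *C1qb* (22.2) and *Cd5l* (16.2). A middle group of *Vsig4* (6.60 FPKM), *Marco* (6.45) and *C1qc* (6.22) could not be ordered: *Vsig4* exceeded *Marco* in 3 of 6 libraries, and *Marco* exceeded *C1qc* in 4. *Csf1r* (4.23 FPKM) exceeded *Timd4* (3.68) in 4 of 6 libraries, so this order was not stable either. *Adgre1* had the lowest mean level (1.12 FPKM), below *Timd4* in 6 of 6 libraries. *Clec4f* exceeded *C1qa* in 5 of 6 libraries, with WPF replicate 4 as the exception, and *C1qa* exceeded *C1qb* in 6 of 6.

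Most markers shared an order of libraries that crossed the groups. WPF replicate 4 held the highest value of 9 of the 10 markers, with *Marco* as the exception, whereas it was the highest library for 16.6% of all tested genes. WPF replicate 2 was the lowest library for 6 of the markers (13.5% of all tested genes), KPF replicate 1 for 3 (*Vsig4*, *Timd4* and *Cd5l*) and KPF replicate 2 for *Marco*. The summed level of the 10 was 202, 276 and 274 CPM in KPF and 192, 268 and 394 CPM in WPF. The lowest and the highest sums were thus both in the control group, and the KPF sums lay between them. For 6 of the 10 markers the group difference in log2 CPM was smaller than the SD of either group.

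**Figure D4:**
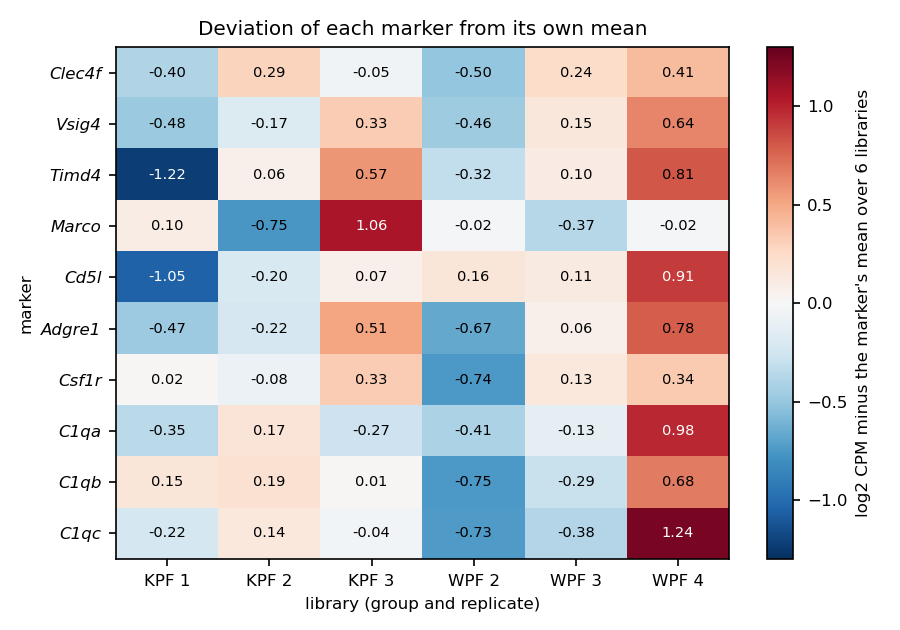
Each cell gives the log2 CPM of a marker in a library minus its mean over the 6 libraries; red is above and blue below the mean. The WPF 4 column is red for all markers but *Marco* (-0.02), the WPF 2 column is blue for all but *Cd5l* (0.16), and KPF 1 holds the lowest *Timd4* (-1.22) and *Cd5l* (-1.05).

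Without WPF replicate 4, 9 of the 10 markers lay above 0 in KPF and the median was 0.18; *Cd5l* stayed below 0. Without KPF replicate 1, 6 lay above 0 (median 0.02), and without WPF replicate 2, 9 lay below 0 (median -0.48). The direction of the list as a whole therefore changed with single libraries. With library totals in place of TMM, a scaling that moved the median of all tested genes to -0.12, 9 of the 10 lay below 0 with a median of -0.41, and *Csf1r* (-0.07) and *C1qb* (-0.08) changed sign.

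Over the 6 libraries, the genes whose log2 CPM was most like the mean standardized level of the markers were *Ifnar1* (Pearson r = 0.994), a chain of the type I interferon receptor, *Trim30d* (0.991), *Plpp3* (0.989), a lipid phosphate phosphatase, *Nckap1l* (0.985), an actin regulator of blood cells, and *Irgm2* (0.984), an interferon-inducible GTPase. They were picked from 10856 genes as the best of all, over only 6 libraries that differ in depth, so the values describe the choice and carry no p. *Trim30d* was at 11.6, 14.2 and 20.2 CPM in the KPF livers and at 8.93, 16.5 and 36.3 in the WPF livers. As with most markers, WPF replicate 4 was highest and WPF replicate 2 lowest for *Trim30d*, and its log2 fold change was -0.43 (adjusted p = 0.762, edgeR).

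The list of Kupffer cell transcription factors held 10 genes, of which 7 were tested and 0 were called. All 7 lay above 0 in KPF, with a median of 0.48 and a range of 0.27 to 1.12. The 7 also lay above 0 with library totals (median 0.33) and without WPF replicate 4 (0.64), and 6 of 7 did without KPF replicate 2. WPF replicate 2 was the lowest library for 5 of the 7, as it was for 6 of the 10 markers, and WPF replicate 4 was the highest for 1. No test compared the lists. *Nr1h3*, the liver X receptor alpha that acts in Kupffer cells and also in hepatocytes, was at 170, 125 and 96.0 CPM in the KPF livers and at 86.1, 98.4 and 94.8 in the WPF livers (log2 fold change 0.48 ± 0.27, SE; adjusted p = 0.546, edgeR); it passed the call rule only without KPF replicate 3 (0.66). *Id1*, an inhibitor of helix-loop-helix factors, gave 0.35 ± 0.60 (SE). *Spic*, which macrophages of iron recycling express, had 21 to 69 reads and was below the minimum level for the test. It was at 2.99, 3.14 and 3.12 CPM in the KPF livers and at 1.84, 3.56 and 4.09 in the WPF livers, and overlapped.

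Other genes of macrophage surface and lysosome were not called either. Of 25 on the list 22 were tested, with 9 above and 13 below 0 and a median of -0.07. WPF replicate 4 was the highest library for 13 of the 22, and without it 17 of 22 lay above 0. *Cd68*, a lysosomal protein of macrophages, was at 13.1, 7.98 and 8.86 CPM in the KPF livers and at 12.7, 13 and 8.78 in the WPF livers (-0.20 ± 0.29, SE). *Cd163*, the haemoglobin scavenger receptor, was at 20.2, 17.7 and 13.1 CPM in the KPF livers and at 9.90, 15.9 and 14.1 in the WPF livers (0.35 ± 0.26, SE), and overlapped between the groups as *Cd68* did. *Ctsb* (-0.27), a lysosomal protease, and *Fcna* (-0.26), a ficolin, had the highest levels per length.

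Genes of monocytes and recruited macrophages were close to the limit of detection. Only 1 of 10, *Plac8*, reached the minimum level, and it was not called (-0.67 ± 0.35, SE; adjusted p = 0.518, edgeR). *Ly6c2* had 1 to 9 reads in each library, *Ccr2*, the chemokine receptor of inflammatory monocytes, 6 to 54, and *Chil3* 0 to 9. *F13a1*, the A chain of coagulation factor XIII, which monocytes express, was named after its reads were seen. It had 22, 22 and 11 reads in KPF and 4, 2 and 6 in the deeper WPF libraries, without overlap. *Ly6c2* went the other way, with 2, 1 and 2 reads in KPF and 5, 3 and 9 in WPF, also without overlap. The summed level of the 10 genes overlapped (13.8 to 18.4 CPM in KPF and 9.97 to 20.1 CPM in WPF). The 9 genes below the minimum level had no test.

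Among 10 genes often named for lipid-associated macrophages, 8 were tested, 1 was called higher and 2 were called lower, beside 5.83% and 3.98% of all genes. *Fabp5*, a fatty acid-binding protein, was at 11.2, 5.56 and 10.4 CPM in the KPF livers and at 82.1, 96.0 and 17.4 in the WPF livers (log2 fold change -2.85 ± 0.62, SE; adjusted p = 0.415, edgeR). *Cd9*, a tetraspanin, was at 10.6, 3.94 and 11.4 CPM in the KPF livers and at 44.4, 42.9 and 16.2 in the WPF livers (-1.99 ± 0.51, SE; adjusted p = 0.430, edgeR). Both were lower in each KPF library, and both were lowest among the controls in WPF replicate 4, the library with the highest Kupffer cell markers. *Lpl*, lipoprotein lipase, was called higher (2.27 ± 0.95, SE), but not by limma (1.03 and 1.12). It stood at 363 CPM in KPF replicate 2 and at 20.5 to 46.7 CPM in the other 5 libraries, and without that library the log2 fold change was 0.17. The *Lpl* call was also lost at a mean FPKM of at least 5 (2.26) and under the replicate block (1.70). The same held without WPF replicate 2 (2.29), 3 (2.13) or 4 (2.39). These 3 genes are expressed by other cells too, and the list's defining members were almost absent: *Trem2*, a lipid receptor, had 1 to 17 reads and *Gpnmb* 1 to 7.

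Of the growth factors of *Csf1r*, *Csf1* was tested and did not pass. It was at 21.2, 32.5 and 19.3 CPM in the KPF livers and at 20.4, 26.3 and 21.1 in the WPF livers (0.11 ± 0.25, SE; adjusted p = 0.891, edgeR). *Il34* had 15 to 35 reads, below the minimum level, and was not tested; its values of 3.38, 2.51 and 1.85 CPM in KPF lay above 1.31, 1.42 and 1.25 CPM in WPF, without overlap. Of the 6 genes on the list of ligands and adaptors, 4 were tested and 0 were called, with *Tyrobp* (0.15) and *Fcer1g* (0.26), signalling adaptors, among them.

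The proteases that join C1q in the first complement complex come mainly from hepatocytes. *C1ra* was at 67.9, 92.7 and 107 CPM in the KPF livers and at 132, 109 and 148 in the WPF livers, and *C1s1* at 382, 448 and 393 CPM in the KPF livers and at 527, 598 and 498 in the WPF livers. Both were lower in each KPF library without overlap, at -0.54 ± 0.26 and -0.41 ± 0.23 (SE), and neither was called (adjusted p = 0.495 and 0.554, edgeR). *C1ra* passed the call rule with limma at both pseudocounts (-0.66 and -0.68), with library totals (-0.68) and without KPF replicate 3 (-0.69). The complement components *C3* (-0.17) and *C4b* (0.23) overlapped, and 0 of the 6 genes on the list were called.

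Genes for uptake of dying cells and macrophage cytokines gave 0 calls, over 5 and 9 tested members. *Gas6* (0.21), which bridges phosphatidylserine to TAM receptors, and *Stab1* (0.55), a scavenger receptor, had the highest levels of the first list. Of the second, *Ccl9*, a chemokine, was at -0.20, and *Il18*, an inflammasome cytokine, was lower in each KPF library (-0.68 ± 0.29, SE; adjusted p = 0.461, edgeR) and missed the unadjusted threshold narrowly. It passed the call rule with limma at both pseudocounts (-0.77 and -0.85), library totals (-0.81), no filter (-0.74), filterByExpr (-0.70) and without KPF replicate 3 (-0.87). *Tnf* had 3 to 12 reads in each library, *Il1b* 12 to 21 and *Il6* 0 to 6, and these inflammatory cytokines were below the minimum level for the test.

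Markers of other cells moved in part with the groups, and their part in the values above was not tested. Their calls stand beside 5.83% of all tested genes called higher and 3.98% called lower. Of 5 tested genes of T, NK and B cells all lay above 0 in KPF, and 1 was called: *Trbc2*, a T cell receptor constant region, at 3.67, 4.21 and 4.58 CPM in KPF and 1.58, 1.85 and 1.66 CPM in WPF (1.29 ± 0.32, SE; adjusted p = 0.430, edgeR). The summed level of the 14 genes on that list was 21.7 to 34.0 CPM in KPF and 13 to 14.4 CPM in WPF; *Cd4* had 0 to 9 reads. Of 6 pan-leukocyte genes tested 1 was called, *Arhgdib* (0.82 ± 0.35, SE). The list's sum overlapped (85.3 to 90.8 CPM in KPF and 73.1 to 94.8 in WPF). The *Arhgdib* call was lost with limma (0.44 and 0.64 at pseudocounts of 1 and 0.1), library totals (0.67), no filter (0.75), filterByExpr (0.79) and the replicate block (0.63). It was also lost without KPF replicate 1 (0.65) or 3 (0.76) and without WPF replicate 2 (0.71), 3 (0.95) or 4 (0.79). It was kept in DESeq2, with DESeq2 size factors in edgeR and without KPF replicate 2. Of 11 stellate cell and fibroblast genes 4 were called higher: *Col3a1* (1.54 ± 0.27, SE) and *Col1a1* (2.22 ± 0.48, SE), collagens, *Reln* (0.73 ± 0.26, SE) and *Des* (4.37 ± 1.26, SE), the last at 493 CPM in KPF replicate 2 and with a log2 fold change of 1.85 without that library. The *Reln* call was lost with limma (0.32 and 0.53), library totals (0.60), the replicate block (0.43) and without KPF replicate 1 (0.45), WPF replicate 2 (0.65) or WPF replicate 4 (0.70), and the *Des* call with limma at a pseudocount of 1 (2.45) and the block (2.92). The sum of that list was 353 to 954 CPM in KPF and 313 to 351 CPM in WPF. The highest sum was in KPF replicate 2, where *Des* alone was at 493 CPM.

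Of 12 sinusoidal endothelial genes 1 was called higher, *Pecam1* (0.75 ± 0.22, SE), a call lost with limma (0.39 and 0.57) and library totals (0.62), and the sums overlapped (146 to 154 CPM in KPF and 117 to 157 in WPF). Of 12 hepatocyte genes 9 lay below 0 in KPF, and 6 did without WPF replicate 2, the library with the highest sum of that list. Among them 1 was called lower, *Cyp3a11* (-2.38 ± 0.59, SE), a drug-metabolizing cytochrome. Neutrophil genes (3 tested, *S100a8* at 0.38 and *S100a9* at 0.27), dendritic cell genes (3 tested, *Batf3* at 0.35 and *Clec9a* at 0.22), cholangiocyte genes (2 tested, *Spp1* at -0.54 and *Krt19* at 0.72) and red cell genes (5 tested, *Hba-a1* at 0.96 and *Hba-a2* at 0.97, near-identical copies) had 0 calls. Both haemoglobin genes passed the call rule under the replicate block (1.33 and 1.26) and without WPF replicate 4 (1.91 and 2.01). The red cell sum ranged from 48.2 to 525 CPM between libraries, and was lowest in WPF replicate 2, where 6 markers were also lowest. The red cell sum was 331 CPM in WPF replicate 4. It was highest in KPF replicate 1, where 3 markers were lowest and 7 lay below their own mean over the libraries.

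**Figure D5:**
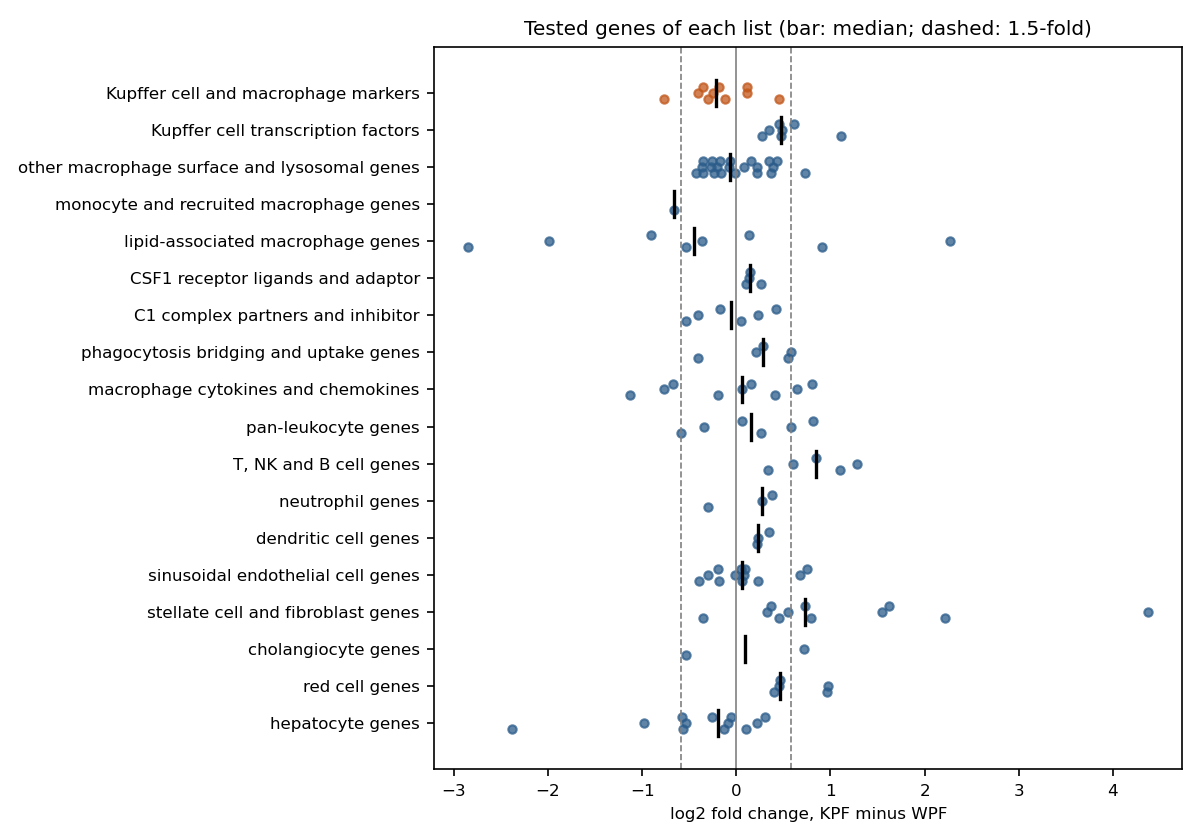
Log2 fold change of KPF against WPF for each tested gene of each list (points), the list's median (black bar) and 1.5-fold (dashed lines). The markers, in orange, spread around a median of -0.22, while the transcription factors of Kupffer cells, the lymphocyte genes and most stellate cell and fibroblast genes lie to the right of 0.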

How the data were processed

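Poly(A) RNA of 3 KPF and 3 WPF livers was sequenced. The authors deposited, for each gene and library, raw counts and FPKM values; per the submitters' processing notes the tools were cutadapt 1.9.1, HISAT2 2.2.1, HTSeq 0.6.1 and DESeq2, with build GRCm39. The deposited FPKM values equal counts per kilobase of exonic length and 1000000 counted reads (100% within 0.006). Symbols were matched by gene ID for 52073 of 56691 genes. Promoters came from RefSeq (GRCm38.p6), and no coordinates were combined across builds.

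Counts were tested with edgeR 4.0.16 (R 4.3.3; quasi-likelihood test, TMM) for 10866 genes, those whose FPKM averaged at least 1, with Benjamini-Hochberg adjustment. Exact permutation tests, over all 20 regroupings of the 6 libraries into 3 and 3, were two-sided. The t quantiles of the confidence intervals came from scipy 1.17.1. limma 3.58.1 on log2(FPKM + 1) or log2(FPKM + 0.1), DESeq2 1.42.0, other scalings and filters, the replicate number as a block and leaving out each library were alternatives. The edgeR fit, limma at a pseudocount of 1 and DESeq2 were tried on simulated counts. The planted changes were larger than those of the markers, and smaller changes were not simulated. The other scalings and filters, the block and the fits without 1 library were not tried in this way. The study describes its replicates as biological. Replicate numbers 2 and 3 occur in both groups, but the deviations of equal numbers correlated at 0.045 and -0.017, so they were not taken as pairs.

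The markers and gene lists were chosen with earlier results of these data known. The genes named were all markers and *Mlxipl*; of each other list, up to 4 called genes, or else the 2 with the highest mean FPKM; 9 fixed genes (*Csf1*, *Il34*, *C1ra*, *C1s1*, *Spic*, *Nr1h3*, *Cd68*, *Cd163* and *Trem2*); and the 5 genes most like the markers. Genes named for few reads were chosen after their values were seen.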

Additional observations from a re-analysis of the deposited data

How the results depend on the processing

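Intervals and tests rest on 3 libraries in each group, and genes with few reads, such as *Adgre1*, are measured with wide error. The count of called markers was 0 in the main edgeR fit. It was 1 (*Cd5l*) in edgeR with library totals, no filter or filterByExpr, and in limma on log2(FPKM + 0.1). Leaving out 1 library gave 0 to 1. Genes called higher, 634, were 237 and 288 with limma at a pseudocount of 1 and 0.1, 371 with library totals, 1576 without a filter, 255 at a mean FPKM of at least 5 and 324 to 910 without 1 library. Genes called lower, 432, were 700 with limma at 0.1, 716 with library totals, 910 without a filter, 205 at a mean FPKM of at least 5 and 246 to 709 without 1 library. Of the calls, 59.5% were higher under TMM scaling, 34.1% under library totals and 30.5% by limma at a pseudocount of 1; limma at 0.1 moved the median of all genes to -0.12. The causes were not tested.

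With the replicate number as a block, which leaves KPF replicate 1 and WPF replicate 4 without a partner so that the difference rests on replicates 2 and 3, 0 markers were called and 9 markers lay above 0 (median 0.40): *Clec4f* was 0.25, *Vsig4* 0.23, *Timd4* 0.42, *Adgre1* 0.45, *C1qa* 0.22 and *C1qc* 0.61, all below 0 without it, and *Cd5l* was -0.20. Under the block *Ctsb* was 0.092, *Gas6* -0.28, *Stab1* -0.17, *Ccl9* 0.36 and *Krt19* -0.36. Library totals turned *Csf1r* to -0.069, *C1qb* to -0.076, *Tyrobp* to -0.016 and *Csf1* to -0.020; limma turned *Csf1* to -0.035 and -0.046 and *Gas6* to -0.0058 and -0.014 at pseudocounts of 1 and 0.1.

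Leaving out 1 library gave ranges of -0.35 to 0.053 for *Clec4f*, -0.50 to 0.042 for *Vsig4*, -0.72 to 0.058 for *Timd4*, -0.14 to 0.78 for *Marco*, -0.52 to 0.24 for *Adgre1*, -0.14 to 0.33 for *Csf1r*, -0.66 to 0.12 for *C1qa*, -0.15 to 0.61 for *C1qb* and -0.68 to 0.50 for *C1qc*. Other genes that changed sign ranged from -0.034 to 0.48 (*Tyrobp*), -0.17 to 0.25 (*Csf1*), -0.32 to 0.086 (*C3*), -0.25 to 0.78 (*Gas6*), -0.057 to 0.87 (*Stab1*), -0.79 to 0.24 (*Ccl9*), -0.056 to 0.58 (*S100a9*) and -0.21 to 0.72 (*S100a8*). The summed level of the markers, a log2 ratio of -0.18, was -0.39 by FPKM and -0.17 with each marker divided by its own mean.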
